A study of Arabidopsis thaliana with 8 samples.

Results

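NTT (WIP2, AT3G57670), WIP4 (AT3G20880) and WIP5 (AT1G51220) are zinc finger transcription factor genes of the WIP family of Arabidopsis thaliana. They were chosen by their loci, and all 3 had a probe, 1 each, among 24648 loci on the arrays. The array annotation names these probes WIP2, WIP4 and WIP5. Each array carried RNA from embryos of 2 crosses: M0191 as female by bdl as male (the bdl cross), and M0171 as female by Col-0 as male (the Col-0 cross), all in the Col-0 ecotype per the labels. The design text calls the 4 arrays of each stage, 3 d or 6 d past pollination, biological replicates. Dyes were swapped: replicates 1 and 2 had Cy5 on bdl cross RNA, replicates 3 and 4 Cy3. The labels do not say what M0191 and M0171 carry, how the bdl allele is driven, or how many embryos were pooled. Both parents differed between the crosses, so the effect of 1 parent cannot be told apart from that of the other.

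WIP proteins carry C2H2-type zinc fingers behind a short conserved motif that gives the family its name. In the embryo, NTT, WIP4 and WIP5 are known to be active at the basal pole, in the hypophysis, the founder cell of the root meristem. Genetic work places them downstream of auxin response, where they act redundantly: seedlings lacking all of them form no root. NTT is also known for the transmitting tract of the carpel, through which pollen tubes grow. The line name bdl is that of bodenlos, with a stabilised form of the repressor IAA12 (BDL), which restrains the response factor MP, and rootless seedlings are its known phenotype. The comparison between crosses therefore asks whether the WIP genes differ in embryos where the MP pathway is perturbed.

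On the 3 d arrays 1 of 2 NTT signals, 5 of 6 WIP4 signals and 3 of 8 WIP5 signals stood above the blank spots. No difference between the crosses passed the test for the members tested, WIP4 and WIP5 at 3 d, NTT and WIP4 at 6 d. Of 24 possible signals at 3 d (3 genes, 4 arrays, both crosses), 16 were deposited. Of these, 9 lay above the 95th percentile of the blank spots (EMPTY and 3XSSC) with a value on the same array and channel. At 6 d, 10 of 12 possible log2 ratios were deposited. In limma fits over all genes, 0 of 2 members tested were called at 3 d and 0 of 2 at 6 d, also 0 at an unadjusted p under 0.05 at either stage. Over all genes, 13.1% were called at 3 d and 51.2% at 6 d.

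Depth on the 3 d arrays can be judged from 1743 blank spots and 27530 gene spots per array. Blank spots held a value in 40.8% to 44.9% of cases and gene spots in 81.1% to 92.0%, so a deposited value alone does not show detection. All percentiles and shares of blank spots given here were taken over those with a value (711 to 782 per array), leaving out the empty ones. Between 74.3% and 81.2% of gene spots exceeded the blank spots' 95th percentile in at least 1 channel. Signals were on the authors' linear intensity scale, on which the median gene spot read 315 to 351. Blank spots had median log2 ratios (bdl over Col-0 cross) of 1.28, −1.18, −1.32 and 0.79 on replicates 1 to 4, a pattern that does not follow the labelled dyes. For 6 d only log2 ratios were analysed here, so no signal can be set against blank spots there, and their direction rests on the table's convention at 3 d. All 9 listed embryo marker genes lay above blank spots on at least 2 arrays at 3 d. So did 10 of 11 seed coat markers and 8 of 10 endosperm markers, TT16, FIS2 and IKU2 doing so on 1 array each. The summed 3 d signal of the embryo markers was 38880 to 80840 in the bdl cross and 54290 to 95610 in the Col-0 cross. That of the seed coat markers was 87580 to 181000 and 55450 to 126500. The part of other seed tissues in this RNA, labelled as that of embryos, was not tested. In RNA of many cells, fewer cells of a type and less RNA per cell cannot be told apart.

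NTT was the least detected member at 3 d. Its spot held a value on replicate 4 alone, where it read 35.5 in the bdl cross and 54.0 in the Col-0 cross. The bdl signal was higher than 72.8% of the blank spots with a value in that channel, and the Col-0 signal higher than 95.5%. Only the latter passed the 95th percentile, so NTT did not meet the filter of at least 2 arrays and was not tested at 3 d. The single log2 ratio was −0.61, on an array whose blank spots had a median of 0.79, and no fold is given because the brighter signal lay under the detection floor of the other channel.

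WIP4, which acts with NTT and WIP5, was the best detected of the trio. It read 322 in the bdl cross and 273 in the Col-0 cross on replicate 1, 106 and 177 on replicate 2, and 31.0 and 48.9 on replicate 3, with no value on replicate 4. All bdl signals and the Col-0 signals of replicates 1 and 2 passed the blank spots' 95th percentile, 5 of 6 in all. The log2 ratios were 0.24, −0.74 and −0.66, so the bdl cross was the brighter on 1 array and the dimmer on 2. The fitted log2 ratio was −0.46 ± 0.30 (SE, n = 3; 95% interval −1.62 to 0.71; limma adjusted p = 0.395). As a fold of bdl over Col-0 cross, this interval runs from 0.325 to 1.63. The sign of the ratio matched that of the blank spots on all 3 arrays, and the part of background signal in it was not tested.

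WIP5 had values on all 4 arrays at 3 d, but they differed in sign. It read 59.6 in the bdl cross and 20.3 in the Col-0 cross on replicate 1, 31.8 and 79.4 on replicate 2, 11.4 and 1.73 on replicate 3, and 126 and 103 on replicate 4. Only replicate 4 lay above blank spots in both crosses, and replicate 2 in the Col-0 cross alone. The Col-0 signal of replicate 3 exceeded just 2.33% of the blank spots with a value. The log2 ratios were 1.55, −1.32, 2.71 and 0.30, with an SD of 1.73, which was larger than that of 97.3% of 17231 genes with 4 values that passed the same filter. Probes with some but not all 3 d signals above blank spots, as for WIP5, had a median SD of 0.759 over 4 values. Those with no such signal had 1.54. The fitted log2 ratio of WIP5 was 0.81 ± 0.74 (SE, n = 4; 95% interval −1.46 to 3.09; limma adjusted p = 0.493), and the array with both signals above blank spots gave 0.30. Its sign followed the blank spots on replicates 1, 2 and 4.

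**Figure D1:**
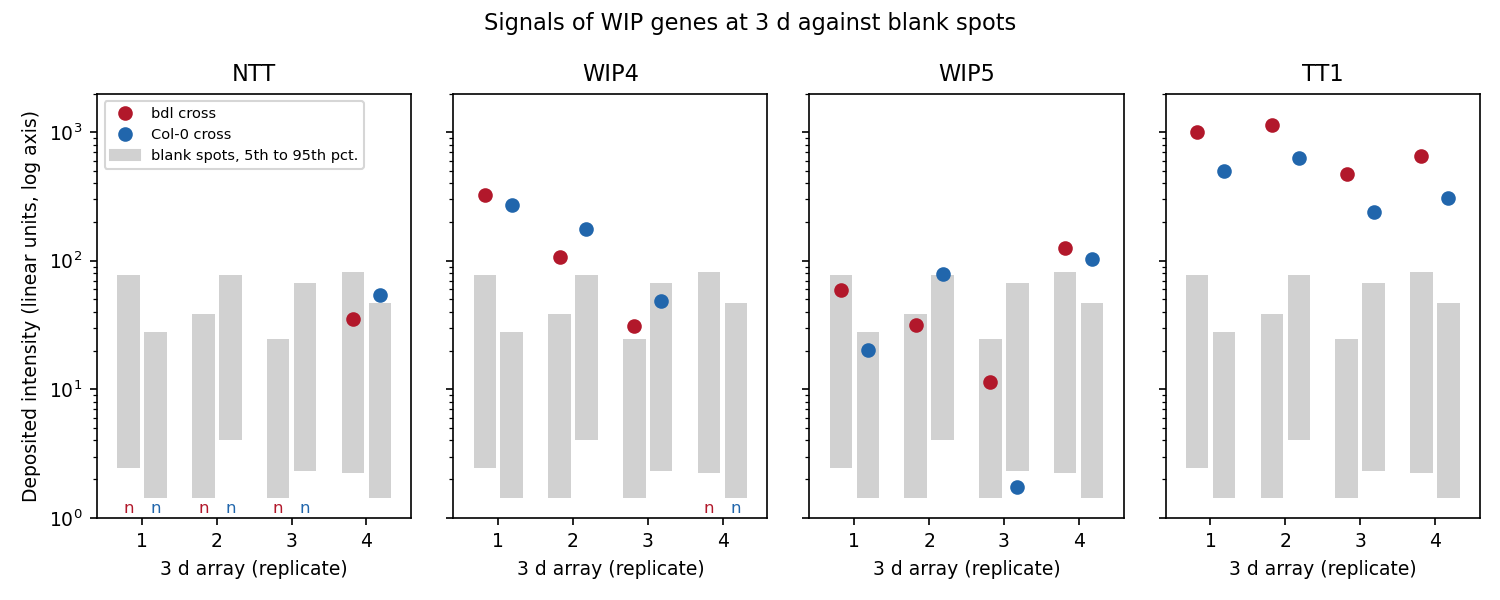
Deposited 3 d intensities (linear units on a log axis) of NTT, WIP4, WIP5 and the related gene TT1 on replicates 1 to 4, red for the bdl cross and blue for the Col-0 cross. Grey bars span the 5th to 95th percentile of the blank spots with a value on the same array and channel, and n marks a spot with no value. Above the grey bars lie 1 of 2 NTT signals, 5 of 6 WIP4 signals, 3 of 8 WIP5 signals and all 8 TT1 signals.

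Reading the absence of calls at 3 d needs the call rate of genes with like signals. Among tested genes whose signals exceeded blank spots in both crosses on 2 of 4 arrays, as for WIP4, 6.68% were called, and 4.26% where this held on 1 array, as for WIP5. Where it held on all 4 arrays, 16.6% were called. The median SE of the log2 ratio was 0.305, 0.373 and 0.0816 in these classes. WIP5, at 0.74, was thus measured less precisely than the median gene of its own class, while WIP4, at 0.30, was close to it.

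At 6 d NTT had values on all 4 arrays, and they split by dye. The log2 ratios were −0.21 and −1.13 where the bdl cross was in Cy5, and 0.51 and 1.41 where it was in Cy3. The mean over arrays was 0.14 with an SD of 1.08, and the fitted log2 ratio was 0.14 ± 0.26 (SE, n = 4; 95% interval −0.68 to 0.96; limma adjusted p = 0.686). On this scale the interval spans a fold of 0.626 to 1.95. The sign of this value turned when replicate 1 or replicate 4 was left out (−0.09 and −0.08).

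WIP4 showed the same split by dye at 6 d, around a lower mean. The log2 ratios were −3.52 and −1.69 with the bdl cross in Cy5, and −0.42 and 1.41 with it in Cy3. The bdl cross was lower on 3 of 4 arrays, but the values ranged over both signs, with an SD of 2.08, larger than that of 97.9% of 18191 genes with 4 values. Probes with some but not all 3 d signals above blank spots had quartiles of this SD of 0.199 and 0.853. The fitted log2 ratio of WIP4 was −1.05 ± 0.52 (SE, n = 4; 95% interval −2.68 to 0.57; limma adjusted p = 0.192). With 1 array left out it was −1.51 to −0.59, and without replicate 1 or replicate 3 the value was −0.59.

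The dye split was measured in the same fit as a dye coefficient, added to the log2 ratio where the bdl cross was in Cy5 and subtracted where it was in Cy3. It was −0.82 for NTT and −1.55 for WIP4, larger in size than in 93.3% and 98.5% of 20807 genes, whose median size was 0.0819. Limma called a dye effect in 0 genes (adjusted p = 1 for both; unadjusted p = 0.0507 for NTT and 0.0562 for WIP4). The mean over Cy5 arrays minus that over Cy3 arrays at 6 d was −1.63 for NTT and −3.10 for WIP4. Both genes belong to the 9914 probes with some but not all 3 d signals above blank spots. Over the 5926 of these with 4 values at 6 d, this measure had quartiles of −0.276 and 0.266. Among the 2786 probes with no such signal, 475 had 4 values at 6 d, and their quartiles were −0.781 and 0.695.

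WIP5 had 2 values at 6 d, −1.74 on replicate 1 and 0.37 on replicate 2, both with the bdl cross in Cy5. They differed in sign and came from 1 dye orientation, so the gene was not tested at that stage. Presence of values thus ran in opposite directions for these paralogs, NTT having 1 value at 3 d and 4 at 6 d, and WIP5 having 4 and 2. Of 2218 probes with a single value at 3 d, 20.7% had 4 values at 6 d, and of 19340 with 4 values at 3 d, 3.68% had 2 or fewer at 6 d. What leaves a spot without a value is not given in the sources used here.

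**Figure D2:**
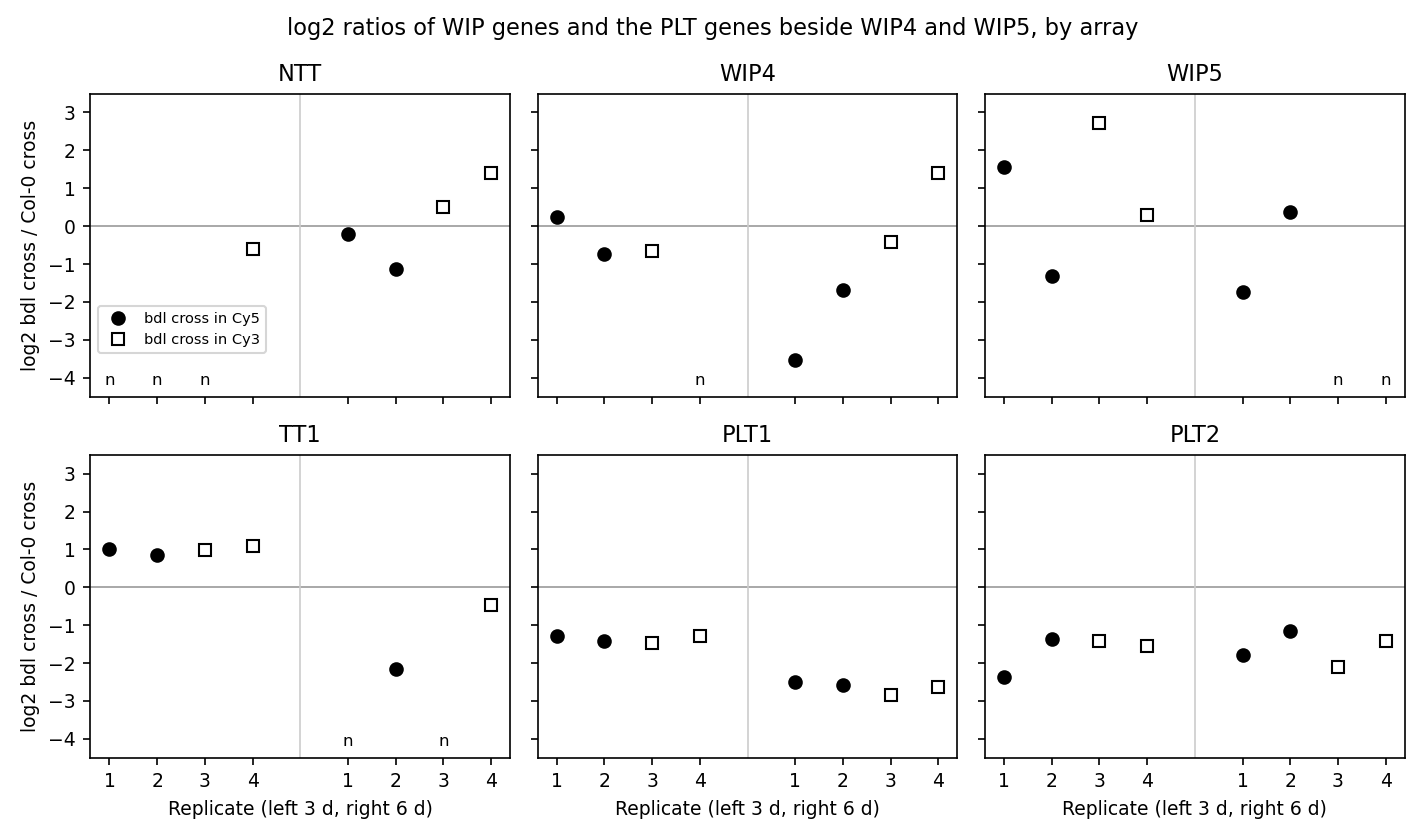
log2 ratio (bdl over Col-0 cross) on each array (3 d left and 6 d right of the grey line) for NTT, WIP4, WIP5, TT1, PLT1 and PLT2; filled circles have the bdl cross in Cy5, open squares in Cy3, and n marks an array with no value. WIP4 and WIP5 have values on both sides of 0 at both stages (WIP5 with 2 values at 6 d), and NTT does at 6 d. The single 3 d value of NTT is −0.61. PLT1 lies between −1.46 and −1.28 at 3 d and between −2.85 and −2.50 at 6 d.

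The change between stages could be tested for WIP4 alone. In a fit of all 8 arrays the log2 ratio at 6 d minus that at 3 d was −0.95 ± 1.00 (SE, n = 7; 95% interval −3.49 to 1.60; limma adjusted p = 0.498), while 44.6% of all genes tested were called. NTT at 3 d and WIP5 at 6 d had too few values for this test.

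Within the rest of the family, TT1 (WIP1, AT1G34790) was the one gene measured well at 3 d. TT1 is known as a regulator of pigment formation in the seed coat, and it stands among the seed coat markers here. It read 999, 1141, 472 and 655 in the bdl cross on replicates 1 to 4, and 495, 627, 240 and 307 in the Col-0 cross. The bdl cross was higher on all 4 arrays, by log2 ratios of 1.01, 0.87, 0.98 and 1.09, and TT1 rose 1.98-fold (0.99 ± 0.07, SE, n = 4; limma adjusted p = 0.0292), beside 7.01% of all genes that rose. Of 10 seed coat markers tested, TT1 included, 2 rose and 0 fell (median 0.38). Their summed signal ranged over arrays from 87580 to 181000 in the bdl cross and from 55450 to 126500 in the Col-0 cross, and the part of seed coat RNA in the TT1 value was not tested. At 6 d TT1 had values on replicates 2 and 4 only, −2.16 and −0.46, and was not tested.

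WIP3 (AT1G08290) and DOT5 (WIP6, AT1G13290) were also mostly undetected at 3 d. WIP3 held a value on replicate 4 alone at 3 d (114 in the bdl cross and 80.9 in the Col-0 cross), above blank spots in both, and read −0.97 and −1.65 on replicates 1 and 3 at 6 d. DOT5, known from leaf vein patterning, had 4 signals at 3 d, of which 0 exceeded the blank spots' 95th percentile, and a single ratio of −0.78 at 6 d. In all, 3 of 6 WIP genes met the detection filter at 3 d, and 19.3% of all gene probes failed it.

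The chromosomal neighbours of WIP4 and WIP5 include PLT1 and PLT2, genes of a related pair of AP2-type factors that maintain root stem cells. In the RefSeq gene order of assembly TAIR10.1, PLT1 (AT3G20840) is separated from WIP4 by 4 genes, and PLT2 (AT1G51190) from WIP5 by 2. Unlike the WIP genes beside them, both were measured with calls at either stage. PLT1 read 646, 1033, 457 and 453 in the bdl cross at 3 d, and 1575, 2774, 1259 and 1099 in the Col-0 cross. It was lower in the bdl cross on every array, and fell 2.57-fold at 3 d (−1.36 ± 0.07, limma adjusted p = 0.0267) and 6.25-fold at 6 d (−2.64 ± 0.08, limma adjusted p = 0.003). PLT2 was dimmer, at 36.2 to 115 in the bdl cross, where 2 of 4 arrays exceeded blank spots, and 92.9 to 339 in the Col-0 cross, where all did. It fell 3.19-fold at 3 d (−1.68 ± 0.21, limma adjusted p = 0.0392) and 3.05-fold at 6 d (−1.61 ± 0.19, limma adjusted p = 0.0109).

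Whether WIP4 and WIP5 differed from these neighbours was tested on the arrays that measured both. WIP4 minus PLT1 was 1.00 ± 0.45 (SD, n = 3; exact two-sided sign-flip test, p = 0.25) at 3 d and 1.59 ± 2.17 (SD, n = 4; exact p = 0.375) at 6 d. WIP5 minus PLT2 was 2.49 ± 1.93 (SD, n = 4; exact p = 0.125) at 3 d. The smallest p this test allows is 0.25 with 3 arrays and 0.125 with 4, so it cannot pass the threshold. The WIP5 differences rest mostly on signals within the blank-spot range, since both its signals passed that level on replicate 4 alone, and on replicate 2 the ratios of WIP5 and PLT2 were close (−1.32 and −1.36). The 3 d interval of WIP4 (−1.62 to 0.71) included the PLT1 value of −1.36, and its 6 d interval (−2.68 to 0.57) included −2.64. The 3 d interval of WIP5 (−1.46 to 3.09) ended above the PLT2 value of −1.68. It reached −1.79 when the dye term was coded by the sign of the blank spots' ratio. With no dye term it ended at −1.18, with an intensity trend at −1.09, and with normexp and loess at −0.63. These comparisons leave out the SE of the PLT1 and PLT2 values.

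Over the nearest 3 genes on each side of NTT, WIP4 and WIP5, 14 of 18 had a probe. At 3 d, 13 were tested, of which 1 rose and 2 fell, against 7.01% and 6.1% of all genes. AGP40, an arabinogalactan protein gene next but one to WIP4, rose (1.02 ± 0.08, adjusted p = 0.0296). LPAT2, an acyltransferase gene of phospholipid synthesis near NTT, fell (−0.42 ± 0.06, adjusted p = 0.044), as did PLT2. At 6 d, 1 of 12 rose (LPAT2, 0.71 ± 0.10, adjusted p = 0.0142) and 3 fell, against 25.6% and 25.7% of all genes. The falls were those of PLT2, of NRPA1, the large subunit of RNA polymerase I (−0.53 ± 0.09, adjusted p = 0.0227), and of AT3G20890 (−1.67 ± 0.06, adjusted p = 0.003). The 8 neighbours tested at 3 d and called at no stage lay between −0.71 and 1.92 (adjusted p = 0.0671 to 0.694), and the 7 tested at 6 d between −1.45 and 0.99 (adjusted p = 0.0735 to 0.502).

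In the list of root stem cell niche genes, PLT1 and PLT2 included, 6 of 10 measured at 3 d fell and 0 rose (median −1.52), against 6.1% of all genes that fell and an all-gene median of −0.01. At 6 d, 7 of 9 fell and 0 rose (median −1.61), against 25.7% and an all-gene median of −0.02. Without PLT1 and PLT2 the counts were 4 of 8 and 5 of 7. The quiescent-centre homeobox gene WOX5 read −4.65, −3.77 and −6.03 at 3 d (−4.77 ± 0.66, n = 3; limma adjusted p = 0.0696), its bdl signal passing the blank-spot level on 1 array, and fell 4.81-fold at 6 d (−2.27 ± 0.27, adjusted p = 0.0103). SCR, which with SHR specifies ground tissue and the quiescent centre, fell 1.44-fold at 3 d (−0.53 ± 0.06) and 2.05-fold at 6 d (−1.04 ± 0.09). SCZ, a heat-shock-type factor needed for ground tissue divisions, fell 1.51-fold at 3 d (−0.60 ± 0.09) and 4.78-fold at 6 d (−2.26 ± 0.08). The zinc finger gene JKD, a partner of SCR and SHR, fell 4.28-fold at 3 d (−2.10 ± 0.09, n = 3) and 3.95-fold at 6 d. SHR, a mobile GRAS factor, passed the blank-spot level at 3 d in the Col-0 cross alone. With the dimmest gene signal above the blank spots' 95th percentile as a floor, SHR was 2.46-fold lower in the bdl cross. Background in the Col-0 signal was left in, so this fold is not a strict bound. On replicate 3 that signal was 68.2, against a blank-spot 95th percentile of 67.7. The fold was not tested. The limma fit used the SHR ratios without a floor and gave −2.63 ± 0.13 (n = 3, adjusted p = 0.0328). With normexp and loess SHR was at −1.23. At 6 d its ratios were 0.07 and 0.64 with the bdl cross in Cy5 and −2.09 and −1.50 with it in Cy3. The fitted −0.72 ± 0.17 (adjusted p = 0.0475) lost its call under 10 of 12 alternatives. With the dye term kept, leaving out any 1 array gave 0 calls at 3 d, in this list as in all genes. With the dye term also dropped, 5 of 10 fell without replicate 1 and 2 of 7 without replicate 2. Without replicate 3 it was 1 of 10, and without replicate 4 it was 6 of 10.

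Markers of other tissues differed between the crosses too. Over all genes, 7.01% rose and 6.1% fell at 3 d, and 25.6% rose and 25.7% fell at 6 d. Of 8 endosperm genes tested, 2 rose and 0 fell at 3 d and 4 rose and 0 fell at 6 d (medians 0.32 and 1.59). Their summed signal at 3 d was 12120 to 16370 in the bdl cross and 7024 to 8448 in the Col-0 cross. Without MPC, the brightest, the sums were 3746 to 5268 and 2678 to 4260, which overlap. Of 9 embryo genes, 6 rose and 3 fell at 3 d, and 4 of 8 rose and 2 fell at 6 d. Of 6 suspensor genes, 2 rose and 1 fell at 3 d, and 0 rose and 3 fell at 6 d (median −0.52). At 6 d, 5 of 9 seed coat genes rose and 1 fell. The part of tissue composition in the root gene values was not tested.

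**Figure D3:**
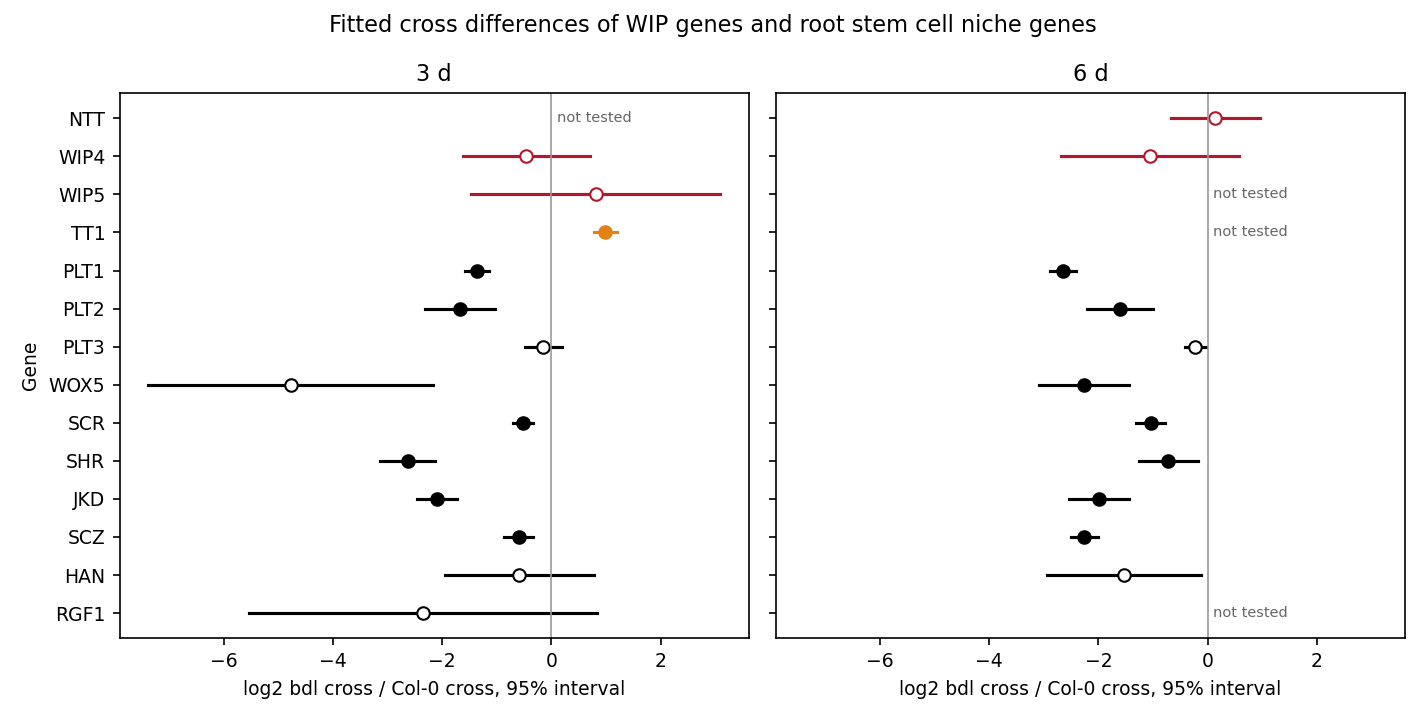
Fitted log2 ratio (bdl over Col-0 cross) with its 95% interval at 3 d and 6 d for WIP genes (red for NTT, WIP4 and WIP5, orange for TT1) and the measured root stem cell niche genes (black); filled points passed the limma adjusted p threshold of 0.05. Where tested, the intervals of NTT, WIP4 and WIP5 include 0. At 3 d those of PLT3, HAN and RGF1 do too. The intervals of PLT1, PLT2, WOX5, SCR, SHR, JKD and SCZ lie below 0 at both stages. At 6 d SHR had single arrays on both sides of 0.

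Upstream of the WIP genes, the auxin input list held 8 measured genes at 3 d, of which 1 rose and 3 fell (median −0.53), and at 6 d 1 rose and 6 fell (median −1.11), against the all-gene shares of 7.01% and 6.1% at 3 d and 25.6% and 25.7% at 6 d. IAA12, the gene affected in bdl, rose by a log2 ratio of 3.40 ± 0.07 at 3 d and 0.31 ± 0.06 at 6 d (adjusted p = 0.0224 and 0.0314), the latter a call lost under 5 of 12 alternatives. MP, known to act upstream of root founder genes, fell by 0.82 ± 0.11 and 1.18 ± 0.15 (adjusted p = 0.0409 and 0.0119). TMO7, a small bHLH gene whose protein moves into the hypophysis, fell at 3 d (−3.71 ± 0.09, n = 3, adjusted p = 0.0283) and 8.88-fold at 6 d (n = 3, adjusted p = 0.0175). Its bdl signal passed the blank-spot level on 2 of the 3 arrays, and with normexp and loess the 3 d value was −2.73 (adjusted p = 0.0137). The auxin efflux carrier gene PIN7 fell 1.92-fold at 3 d (adjusted p = 0.0292), a call lost when probes were averaged (adjusted p = 0.3).

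In the columella and root cap list, 5 of 8 genes were tested at 3 d, of which 1 rose and 1 fell (median −0.06). Over all genes 7.01% rose and 6.1% fell at 3 d. BRN1, a NAC factor of root cap maturation, rose 3.46-fold (1.79 ± 0.28, adjusted p = 0.0496), with ratios of 2.51, 2.26, 1.88 and 0.50, a call lost under 10 of 17 alternatives. ARF10, a repressing response factor that acts in root cap formation, fell 1.64-fold (−0.71 ± 0.09, adjusted p = 0.0392). At 6 d, 3 of 6 fell and 0 rose (median −0.25), beside 25.7% and 25.6% of all genes. Genes of the transmitting tract and carpel, the other site of NTT function, gave 0 calls among 5 tested at 3 d (median 0.20), beside 13.1% of all genes. At 6 d they gave 2 rises and 1 fall among 7 (median 0.15), near the all-gene shares of 25.6% and 25.7%.

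**Figure D4:**
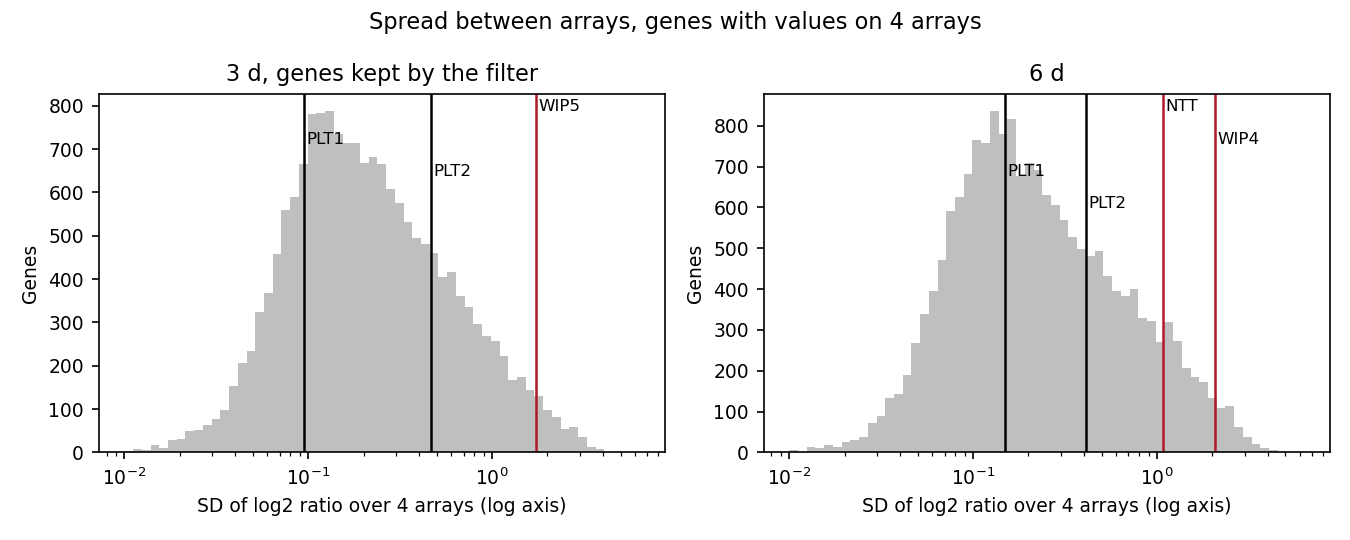
Number of genes by the SD of their log2 ratios over 4 arrays (log axis) at 3 d, for genes passing the detection filter, and at 6 d; vertical lines mark WIP5 (3 d), NTT and WIP4 (6 d) in red, and PLT1 and PLT2 in black. The red lines stand in the upper tail, at SDs of 1.73, 1.08 and 2.08. Probes with some but not all 3 d signals above blank spots had a median SD of 0.759 at 3 d and 0.413 at 6 d.

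The pattern most like that of WIP4 was sought among 15707 genes that passed the 3 d filter and shared its 7 arrays. The smallest root mean square differences of log2 ratios were 0.83 for AT2G21200, 0.84 for AT1G34910, 0.85 for AT1G07840, 0.89 for AT1G77400 and 0.91 for LETM1. For scale, the SD of the log2 ratios of WIP4 between arrays was 0.54 at 3 d (n = 3) and 2.08 at 6 d (n = 4). NTT and WIP5, with values on 5 and 6 arrays, did not reach the minimum of 7 for this comparison.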

How the data were processed

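Each deposited 3 d file holds linear intensity values of both crosses for every spot. The sources used here do not give the scanner or normalization. The channels' median gene signals lay close together, so values were used as deposited and normexp and loess, planned for raw signals, served as alternatives; blank spots held signal and were not balanced between channels. RNA was amplified and dye-coupled, per the labels' protocols. The deposited table of 28399 rows holds log2 ratios of all 8 arrays; its rows were named by equal 3 d ratios (within 1e-06) and equal gaps, which placed 2233 of 2267 rows with a single 3 d value, NTT among them. All 1361 such rows that could be checked stood in probe ID order. Rows with no 3 d value stayed unnamed. Names came from the RefSeq gene table (TAIR10.1), which held 24467 of 24648 loci.

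A probe was kept at 3 d where, on at least 2 arrays, a channel was brighter than 95% of the blank spots with a value. Genes needed values on 3 arrays with both dye orientations, and 19218, 20807 and 18836 genes were tested at 3 d, at 6 d and between stages. Genes took the probe of highest mean signal. Tests were lmFit and eBayes of limma 3.58.1 (R 4.3.3) with a dye term and Benjamini-Hochberg adjustment over all genes; "rose", "fell" and "called" mean an adjusted p under 0.05. The method was tested on simulated data. The number of arrays limits precision. Members, lists and tests were chosen with earlier results of these data known. Named with values were the WIP genes, MP, IAA12, PLT1, PLT2, WOX5, genes of the auxin input (8 reported here), root niche and root cap lists called at 3 d, neighbours (3 on each side of a member) called at either stage, and the 5 nearest patterns; markers of other tissues are given by counts, and TT16, FIS2, IKU2 and MPC were singled out after their values were seen.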

Additional observations from a re-analysis of the deposited data

Results flagged for a closer look

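TT1 was higher in the bdl cross on all 4 arrays at 3 d and lower on both arrays with a value at 6 d (mean log2 ratio −1.31); this difference was not tested. Among the other genes of 23 examined (WIP genes, root and auxin genes named in the report, and neighbours called at a stage), the log2 ratio changed from 3 d to 6 d in the fit of all 8 arrays (limma adjusted p under 0.05) by −3.09 for IAA12, −0.97 for PIN7, 0.54 for ARF10, −1.66 for SCZ, 2.52 for WOX5, −1.28 for PLT1, −0.51 for SCR, 1.14 for LPAT2 and −1.36 for AT3G20890. Over all genes tested, 44.6% changed in this way. The WOX5 change lost its call with an own dye term for each stage (adjusted p = 0.0512), with the replicate block (adjusted p = 0.0785) and without 6 d replicate 2 or 4 (adjusted p = 0.0612 and 0.0708). Its 3 d ratios rest on a bdl signal that passed the blank-spot level on 1 of 3 arrays, and with normexp and loess the 3 d value was −2.52, against −2.27 at 6 d. The change of PIN7 lost its call in the mean over probes (−0.30, adjusted p = 0.484). In 32 groups of 4 arrays, 0 held an array far from the other 3 by Dixon's criterion.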

How the results depend on the processing

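No alternative called a member where it could be fitted, which was WIP4 and WIP5 at 3 d and NTT and WIP4 at 6 d. At 3 d the fits with 1 array left out and the dye term kept called 0 of all genes. Those fits could thus call no member. WIP4 kept its sign under all 13 alternatives at 3 d (−0.70 to −0.21, adjusted p = 0.0661 to 0.683), all 12 at 6 d (−1.87 to −0.23, adjusted p = 0.124 to 0.82) and all 12 between stages (−1.49 to −0.14, adjusted p = 0.232 to 0.919). WIP5 did so under all 17 at 3 d (0.09 to 1.53, adjusted p = 0.174 to 0.939). Some could not move the value, such as a mean over 1 probe, so this agreement was partly fixed. NTT at 6 d ranged from −0.28 to 0.57 (adjusted p = 0.305 to 0.979), and from −0.085 to 0.37 with 1 array left out and the dye term kept. It reversed without replicate 1 (−0.085) or 4 (−0.08), and without replicate 4 and the dye term (−0.28). With normexp and loess WIP5 was 0.09 and WIP4 −0.26 at 3 d. Requiring all 8 signals to pass the blank-spot level left none of the 3 genes to test, and WIP4 at 3 d could not be fitted without replicate 3.

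The count of genes called at 3 d was 2521; it was 5075 with no dye term, 4863 with the dye term coded by the blank spots' sign, 5373 where all 8 signals passed the blank-spot level, 4126 with normexp and loess, and 5367 with an intensity trend. It was 0 with any 1 array left out (4610 to 5358 at an unadjusted p under 0.05; 1 residual degree of freedom for a gene with 3 arrays), and 1222 to 3366 with the dye term also dropped (1452 without replicate 2). At 6 d the count was 10663, and 6936 (without replicate 2) to 8227 with 1 array left out. PLT2 between stages was 0.06 and ranged from −0.20 to 0.27 with 1 array left out, reversing to −0.20 without 3 d replicate 1, −0.12 without 6 d replicate 2 and −0.01 without 6 d replicate 4. At 3 d WOX5 was called without the dye term (−4.82, adjusted p = 0.0161), with that coded by blank spots (−5.12, adjusted p = 0.0225), with normexp and loess (−2.52, adjusted p = 0.0124) and with the intensity trend (adjusted p = 0.00853). BRN1, SCZ and SHR lost their 3 d call under some settings (BRN1 and SCZ without the filter, adjusted p = 0.0591 and 0.0541; SHR with dye coded by blank spots, adjusted p = 0.107), and SHR its 6 d call under 10 of 12 alternatives (adjusted p = 0.0511 with centring, 0.333 with dye left out of the fit, 0.0628 to 0.126 with 1 array left out and 0.163 to 0.707 with dye also dropped). AGP40 at 6 d (−0.03, not called) ranged from −0.64 to 0.57 with 1 array left out, reversing without replicate 1 (0.16, or 0.19 with no dye term) and replicate 3 (0.57 and 0.27). NRPA1 between stages (0.08, not called) ranged from −0.03 to 0.19, reversing without 3 d replicate 3 (−0.029) and 6 d replicate 3 (−0.0054). The cause was not tested.

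The labels give both stages the same replicate numbers without saying that these mark a shared batch, and deviations of same-numbered arrays correlated at −0.0399, −0.0436, −0.0788 and −0.0751, so the numbers were not taken as pairs. With the replicate block WIP4 between stages was −1.49 (adjusted p = 0.306), and 7365 genes were called against 8406.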
